A study of Arabidopsis thaliana with 6 samples.

Results

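The mitochondrial genome of Arabidopsis thaliana was represented in the deposited tables by 122 of 27655 genes, taken as every gene whose identifier starts with ATMG, the prefix of mitochondrial loci, without regard to its counts. Plant mitochondria keep a small genome of their own, which encodes some subunits of the respiratory complexes, of ATP synthase and of the mitochondrial ribosome, together with proteins that attach haem to cytochrome c, while most mitochondrial proteins are encoded in the nucleus. On a plant mitochondrial RNA a poly(A) tail marks the molecule for degradation, and most mature mitochondrial transcripts carry none. In anthers, unusual mitochondrial transcripts are known from cytoplasmic male sterility, a failure of pollen found in many crop species.

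Male meiocytes, the anther cells that go through meiosis, were squeezed out of anthers of stages 4 to 7 with forceps, and their RNA was sequenced. The 2 genotypes were Ler (Landsberg erecta) and knu-2, a mutant allele of KNU, which encodes a zinc finger protein, with 3 biological replicates each. The libraries were enriched for RNA with poly(A) tails by binding to poly-T beads, so the values below describe mitochondrial RNA that this step retained, including any internal A-rich RNA, and not the full amount of mitochondrial RNA. Totals were between 18070435 and 27995200 counts per library. KNU itself stood at 68.0 to 87.2 CPM (the count relative to the library total, scaled with TMM factors) in Ler and at 4.62 to 13.8 CPM in knu-2. Marker genes of meiocytes and of the tapetum, the nurse layer of the anther, differed between the genotypes. The summed level of 15 meiocyte genes was 5237 to 6395 CPM in Ler against 1227 to 2139 in knu-2, and 12 of them were lower, 1 was higher and 2 did not pass the test. The summed level of 13 tapetum genes was 316 to 379 CPM in Ler against 1310 to 1870 in knu-2, with 8 of 10 tested genes higher and 1 lower, and 3 tapetum genes, MS1, MS2 and CYP703A2, were at 0. In such bulk collections fewer cells of a type and less RNA per cell cannot be told apart, and the part of these markers in the mitochondrial values was not tested.

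Mitochondria-encoded genes took a small and variable share of every library. The share of library counts was 0.0190% (95% exact binomial interval 0.0184 to 0.0195), 0.0238% (0.0232 to 0.0244) and 0.0168% (0.0163 to 0.0174) in Ler replicates 1 to 3. It was 0.0290% (0.0282 to 0.0298), 0.102% (0.101 to 0.104) and 0.0226% (0.0220 to 0.0232) in knu-2 replicates 1 to 3. The intervals cover counting error only, and rest on 3335 to 18433 mitochondrial counts per library. The second knu-2 library stood apart from the other 5, while knu-2 replicate 3 lay within the range of Ler.

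The mean share was 0.0199% ± 0.0036 for Ler and 0.0512% ± 0.0441 for knu-2 (SD, n = 3), a ratio of 2.58. An exact two-sided permutation test gave p = 0.2, where 3 against 3 libraries cannot go below 0.1, so it cannot settle whether the genotypes differ. The genotypes overlapped, with Ler up to 0.0238% and knu-2 from 0.0226%. Without knu-2 replicate 2 the ratio was 1.30 (exact permutation p = 0.3). On the TMM scale the summed mitochondrial level was 222 ± 39.4 CPM in Ler against 441 ± 348 CPM in knu-2 (SD, n = 3, exact permutation p = 0.3). The share of chloroplast-encoded genes, which pass the same poly(A) step, was 0.0305, 0.0316 and 0.0326% in Ler and 0.0232, 0.0649 and 0.0387% in knu-2 (ratio 1.34, exact permutation p = 0.7, and 0.979 without knu-2 replicate 2). That organelle was thus also highest in knu-2 replicate 2. So was the summed level of 10 nuclear photosynthesis genes, at 2454 CPM there against 1053 to 1672 CPM in the other 5 libraries. Of that sum RBCS1A made up 934 CPM, and LHCB1.2 was instead highest in Ler replicate 2 (247 against 208 CPM in knu-2 replicate 2). knu-2 replicate 2 also had the lowest total of the 6 libraries, and the part of depth and of these markers in its mitochondrial share was not tested.

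**Figure D1:**
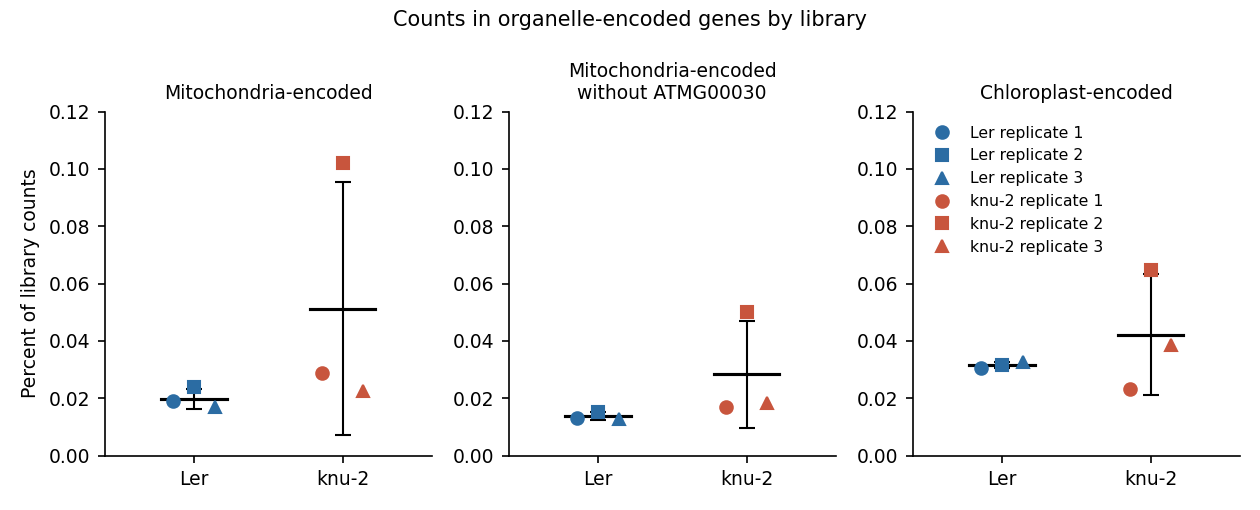
Percent of library counts in mitochondria-encoded genes, in the same genes without ATMG00030, and in chloroplast-encoded genes, for 3 Ler and 3 knu-2 libraries (points), with the mean (wide line) and SD (bars). knu-2 replicate 2 is highest in all 3 panels, and without ATMG00030 the mitochondrial shares of the genotypes do not overlap (Ler up to 0.0154%, knu-2 from 0.0171%).

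Counts fell on few of the genes. Of the 122, 73 had a count in any library, 25 had counts in all 6, and 49 were at 0 in every library, which allows up to 0.119 to 0.166 CPM per library by the limit of 3 counts. This limit holds only where reads of a gene could be counted, which is uncertain for genes copied elsewhere in the reference. Each library detected between 42 and 58 of the 122. The filter on low counts kept 34 for testing, and the 88 left out held 1040 of the 43887 mitochondrial counts, or 2.37%. The 12 genes with the most counts held 85.4%.

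ATMG00030, a gene model of 324 bp to which the sources used here pair no product, alone held 39.3% of all mitochondrial counts. Its level was 67.8, 92.6 and 43.8 CPM in Ler against 109.9, 428.9 and 40.9 CPM in knu-2. Within the mitochondrial counts it made up 31.2, 35.3 and 23.8% in Ler and 40.9, 51.0 and 19.3% in knu-2, so that its lowest and its highest share were both found in knu-2. Its log2 fold change was 1.5 ± 0.96 (SE) on the library scale (edgeR adjusted p = 0.27) and 0.30 ± 0.33 relative to the mitochondrial total (adjusted p = 0.491).

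Without ATMG00030 the mitochondrial share was 0.0131, 0.0154 and 0.0128% in Ler and 0.0171, 0.05 and 0.0182% in knu-2. The genotypes then did not overlap, with or without knu-2 replicate 2, and had means of 0.0138% ± 0.0014 and 0.0285% ± 0.0187 (SD, n = 3). The exact permutation p was 0.1, the smallest this design allows.

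Per kilobase of gene model, ATMG00030 also had the highest level, at 210.2 ± 75.3 CPM per kb in Ler against 597 ± 639 CPM per kb in knu-2 (SD, n = 3). ATMG00660, a model of 450 bp with no product given, followed with 71.2 ± 18.2 and 74.8 ± 24.6 CPM per kb, and then ATMG00650 with 26.8 ± 0.363 and 43.0 ± 16.1 CPM per kb. ATMG00665 is only 22 bp long, so its level per kb, 66.4 ± 32.9 in Ler against 70.6 ± 42.1 in knu-2, rests on a length shorter than a usual read. In each genotype the levels per kb of ATMG00030 lay above those of ATMG00660 in all 3 libraries, and those of ATMG00660 above those of ATMG00650, while ATMG00665 overlapped with ATMG00660.

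The names of the genes limited what could be said of roles. Of the 122, 45 were paired with a product by the reference notes of nuclear genes that resemble them, and for 21 of these the note calls the protein unknown. A further 12 were named by length alone, because the deposited length equalled the coding length of exactly 1 protein gene, or of a block of its coding parts, in the mitochondrial genome of the reference and of no other mitochondrial gene in the tables. The length rule also matched 7 genes with a product in a note. For 5 of them the note names the same protein, and for ATMG00900 (ccmC) and ATMG00960 (ccmFN2) it names only cytochrome c biogenesis or assembly. It was set after the tables had been seen and used only lengths of at least 500 bp. Of the 12 genes with the most counts, 8 were named this way, all by length, and ATMG00030, ATMG00660, ATMG00670 and ATMG00650 have no name here.

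Genes named here for complex I, which passes electrons from NADH to ubiquinone, held 10.7% of the mitochondrial counts. Their summed level was 20.8, 23.5 and 19.5 CPM in Ler against 28.3, 94.1 and 25.9 CPM in knu-2. The genotypes did not overlap, and knu-2 replicate 2 was more than 3 times as high as either other knu-2 library. The length rule could not place nad4L (303 bp) and nad6 (618 bp) of the reference, so any rows for them are not included. For nad1 (978 bp) and nad2 (1467 bp) only ATMG01275 (387 bp) and ATMG01320 (922 bp) are included, which are shorter. Rows for the rest of both may be among the genes without a role, so the sum and the numbers called may be incomplete. All 8 genes named here for complex I had counts and 6 were tested. Of these 6, 2 rose in knu-2, where 23.6% of all genes tested in the same fit were called higher, and the other 4 did not pass.

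ATMG00070, matched to nad9, had the highest level per kb of these, with 10.2, 12.2 and 8.89 CPM in Ler against 10.5, 30.2 and 17.9 CPM in knu-2 (log2 fold change 0.90 ± 0.35, edgeR adjusted p = 0.0536). ATMG00510, matched to nad7, had 4.31, 5.21 and 5.19 CPM in Ler against 4.84, 16.5 and 4.30 CPM in knu-2 (0.80 ± 0.50, adjusted p = 0.215). Both overlapped between the genotypes. The gene nad5 is split in plant mitochondria and joined by trans-splicing, and 2 of the models match separate blocks of its coding parts. The coding part between these blocks is too short for the length rule, which used only lengths of at least 500 bp. Whether ATMG00665, of 22 bp, matches it was not tested.

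ATMG00060 has the length of coding parts 4 to 5 of nad5 and gave 3.47, 3.95 and 3.15 CPM in Ler against 7.44, 16.7 and 0.284 CPM in knu-2 (1.21 ± 1.1, adjusted p = 0.418). ATMG00513 has the length of coding parts 1 to 2 and gave 1.098, 0.316 and 1.05 CPM in Ler against 2.50, 8.86 and 1.05 CPM in knu-2 (2.33 ± 0.87, adjusted p = 0.0444). The blocks therefore differed in knu-2 replicate 3, where parts 4 to 5 were at their lowest of the 6 libraries and parts 1 to 2 lay within their Ler range. These values rest on 7 and 26 counts. Of the 100-base stretches, 0% recur elsewhere in the reference for parts 4 to 5 and 92.0% for parts 1 to 2, so reads of the blocks may not have been counted alike. ATMG00580, matched to nad4, gave 0.835, 0.355 and 0.552 CPM in Ler against 1.02, 9.36 and 1.18 CPM in knu-2, without overlap (2.72 ± 0.96, adjusted p = 0.0355). ATMG01320, with the length of coding parts 3 to 5 of nad2 and named NADH dehydrogenase 2B in a note, gave 0, 1.30 and 0.166 CPM in Ler against 1.68, 12.5 and 0.324 CPM in knu-2 (3.26 ± 1.69, adjusted p = 0.159).

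For complex IV, cytochrome c oxidase, the summed level of 4 genes was 15.8, 16.03 and 16.6 CPM in Ler against 28.9, 101.8 and 10.9 CPM in knu-2. Ler was nearly constant, and the knu-2 libraries lay on both sides of it. The largest part in 4 of the 6 libraries was ATMG01360, matched to cox1, the catalytic subunit, with 8.48, 10.5 and 7.40 CPM in Ler against 21.2, 82.8 and 3.57 CPM in knu-2 (2.02 ± 1.14, edgeR adjusted p = 0.214). Its share of the mitochondrial counts was 3.97% ± 0.07 in Ler against 6.46% ± 4.26 in knu-2 (SD, n = 3). ATMG00160, matched to cox2, was at 7.34, 4.42 and 8.61 CPM in Ler against 7.70, 16.8 and 6.93 CPM in knu-2 (0.63 ± 0.41, adjusted p = 0.234), above cox1 in replicate 3 of both genotypes. The cox1 to cox2 count ratio was 1.16, 2.38 and 0.859 in Ler and 2.75, 4.93 and 0.515 in knu-2, so these transcripts did not vary in proportion. A gene named cytochrome c oxidase subunit 3, ATMG00730, had 50 counts in all, 37 of them in knu-2 replicate 2.

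Of 6 genes named here for ATP synthase, 4 had counts and only ATMG00640, matched to atp4, was tested. It stood at 5.80, 6.00 and 5.80 CPM in Ler and at 7.44, 26.2 and 6.52 CPM in knu-2, above Ler in all 3 libraries, and did not pass (1.19 ± 0.50, edgeR adjusted p = 0.0739). As a share of the mitochondrial counts it was close to constant, at 2.70% ± 0.43 in Ler against 2.99% ± 0.19 in knu-2 (SD, n = 3). For complex III, ATMG00220 (cob, apocytochrome b) was at 0 in every library. So was ATMG00590, which a note names cytochrome b/b6 protein and which matches no protein gene of the reference's mitochondrial genome by length. Every 100-base stretch of cob recurs elsewhere in the reference, so its 0 does not show that the transcript was absent.

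Genes named here as ribosomal proteins held 8.86% of the counts. ATMG00090, matched to rps3 of the small subunit, gave 16.4, 14.3 and 11.7 CPM in Ler against 15.03, 50.2 and 11.95 CPM in knu-2 (0.86 ± 0.53, edgeR adjusted p = 0.228). ATMG00080, matched to rpl16 of the large subunit, gave 3.56, 7.15 and 4.97 CPM in Ler against 6.83, 27.8 and 5.07 CPM in knu-2 (1.34 ± 0.65, adjusted p = 0.124). For both only knu-2 replicate 2 lay outside the range of Ler. The other 4 genes so named had at most 16 counts each over all libraries. ATMG00560, with 266 counts, has the 1050 bp of both rpl2 and an atp6 gene of the reference. The length rule could not name it, so it is counted with neither the ribosomal nor the ATP synthase genes.

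Of 5 genes for cytochrome c maturation, which attaches haem to cytochrome c, 3 were tested and 1 rose, where 23.6% of all genes tested were called higher. ATMG00180, named cytochrome C biogenesis 452 in a note, was at 0, 0.237 and 0 CPM in Ler and at 1.02, 3.52 and 0.770 CPM in knu-2, without overlap (4.30 ± 1.46, edgeR adjusted p = 0.0298). Its Ler level rests on counts in 1 library, so the size of the fold is poorly fixed, as the range of 3.33 to 8.24 with 1 library left out shows. ATMG00110, matched to ccmB, was at 3.12, 2.76 and 3.09 CPM in Ler and at 1.68, 4.2 and 2.55 CPM in knu-2 (-0.09 ± 0.55, adjusted p = 0.911).

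The 91 genes without a role here held 66.6% of the counts. Beside ATMG00030, the most abundant was ATMG00660, with 32.2, 40.1 and 23.7 CPM in Ler against 25.4, 29.3 and 46.2 CPM in knu-2 (0.07 ± 0.26, edgeR adjusted p = 0.85). ATMG00650 had 8.17, 8.21 and 8.01 CPM in Ler against 7.39, 15.98 and 15.72 CPM in knu-2 (0.68 ± 0.33, adjusted p = 0.112). ATMG00670 had 12.5, 15.8 and 12.9 CPM in Ler against 8.46, 7.12 and 11.9 CPM in knu-2, below Ler in all 3 libraries, and did not pass (-0.58 ± 0.29, adjusted p = 0.116). In knu-2 replicate 2 ATMG00660 and ATMG00670 were not at their highest, and ATMG00650 was level with knu-2 replicate 3.

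Among the 12 genes with the most counts, 9 had more than 2 times the mean of the other knu-2 libraries in knu-2 replicate 2, with ratios up to 6.70 for cox1. ATMG00660 and ATMG00670 were instead below that mean, the latter at a ratio of 0.699. The make-up of the mitochondrial counts therefore varied between libraries as well as their sum. The count ratio of ATMG00030 to ATMG00660 was 2.11, 2.31 and 1.85 in Ler and 4.33, 14.6 and 0.884 in knu-2. The ratio of cox1 to ATMG00670 was 0.677, 0.665 and 0.573 in Ler and 2.50, 11.6 and 0.299 in knu-2. Both ratios were similar among the Ler libraries, and in knu-2 they lay above the Ler range in replicates 1 and 2 and below it in replicate 3.

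**Figure D2:**
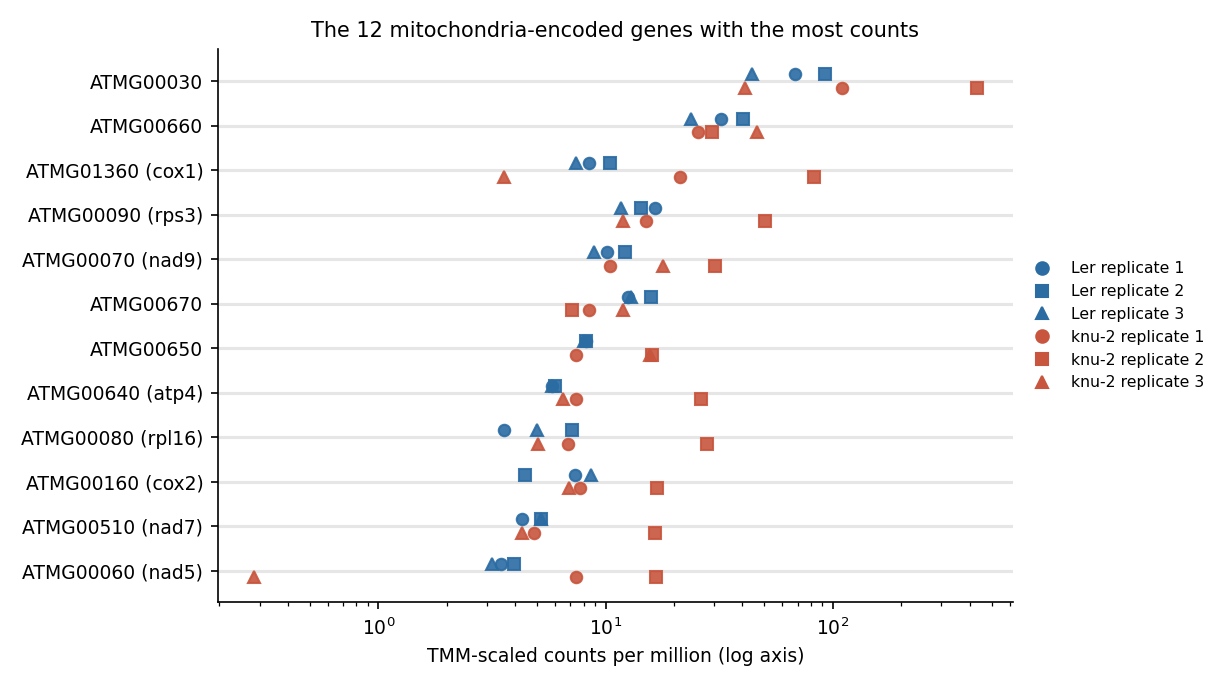
TMM-scaled CPM (log axis) of the 12 mitochondria-encoded genes with the most counts, in each Ler and knu-2 library, with names matched by length in brackets. knu-2 replicate 2 (red squares) is the highest library for most genes but not for ATMG00660 and ATMG00670, and knu-2 replicate 3 (red triangles) is the lowest for cox1 and for nad5 parts 4 to 5.

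**Figure D3:**
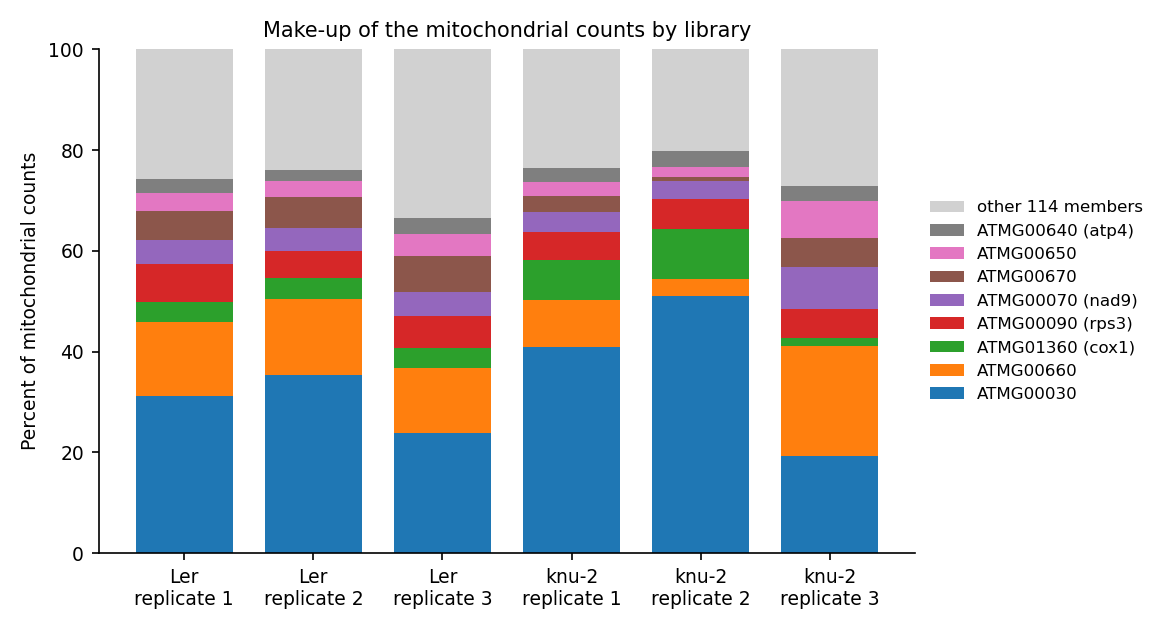
Percent of the mitochondrial counts of each library held by the 8 genes with the most counts and by all others together. ATMG00030 ranges from 23.8 to 35.3% in Ler and from 19.3 to 51.0% in knu-2.

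Tested together with all genes on the library scale, 4 mitochondria-encoded genes were higher in knu-2, 1 was lower and 29 did not pass (edgeR's quasi-likelihood test, adjusted p under 0.05 over 18422 genes). In the same comparison 48.1% of all genes tested were called, 23.6% higher and 24.4% lower, so the 5 of 34 did not exceed the background. Groups that did not overlap were found for 4 above and 2 below among the 34, where 59.1% of all genes tested did not overlap, 29.8% above and 29.3% below. The median log2 fold change was 0.47 over the 34 and 0.10 over all genes tested, and 25 of the 34 were positive. The 34 passed a filter on counts, so these numbers do not describe all 122.

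The genes that rose were nad4, coding parts 1 to 2 of nad5 and ATMG00180, described above, and ATMG00516. ATMG00516 is a model of 318 bp with no product given, too short for the length rule to name. It was at 0.439, 1.62 and 0.939 CPM in Ler against 2.96, 6.94 and 2.11 CPM in knu-2 (1.99 ± 0.73, adjusted p = 0.0413). The gene that fell, ATMG01330, 384 bp and also without a product, was at 1.89, 6.00 and 2.93 CPM in Ler against 0.612, 0.0913 and 1.30 CPM in knu-2 (-2.42 ± 0.90, adjusted p = 0.045). Neither overlapped between the genotypes. All 5 calls lay close to the threshold and at low counts.

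Each call was lost when some single library was left out. In these edgeR fits none of them passed without knu-2 replicate 2, with adjusted p of 0.53 for nad4 (log2 fold change 0.91), 0.38 for nad5 parts 1 to 2 (1.11), 0.202 for ATMG00516 (1.34), 0.137 for ATMG00180 (3.33) and 0.057 for ATMG01330 (-1.90), and the median over the mitochondrial genes tested was 0.15. Without Ler replicate 1 and without Ler replicate 3 none of the genes tested was called either. Without Ler replicate 2 ATMG00516 and ATMG00180 passed, and no other mitochondrial gene did. Without knu-2 replicate 1 the number called was 7, among them ATMG00070 (nad9, adjusted p = 0.0062), ATMG00650 (0.0181) and ATMG00640 (atp4, 0.0283). Without knu-2 replicate 3 it was 10, with cox1 (0.00755), ATMG00060 (0.00778), atp4 (0.0262), ATMG00080 (rpl16, 0.0355) and, lower, ATMG00670 (0.0443) among them. Over all genes tested, 38.5 to 45.8% were called in these smaller sets.

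Scaled to the mitochondrial total, none of the 34 passed, with 48.0% of all genes called in that fit. At an unadjusted edgeR p under 0.05 there were 2. ATMG00180 had a log2 fold change of 3.42 ± 1.31 (edgeR adjusted p = 0.0506), and ATMG01330 had -2.53 ± 1.08 (edgeR adjusted p = 0.0749). DESeq2 called both, the former higher and the latter lower. Without Ler replicate 2, edgeR called 2 genes higher, among them ATMG00180 (adjusted p = 0.0234). The median log2 fold change was -0.25, with 13 positive and 21 negative. On this scale 10 of the 12 genes with the most counts lay between -0.32 and 0.30, and cox1 (0.71 ± 0.57, edgeR adjusted p = 0.35) and ATMG00670 (-0.98 ± 0.57, adjusted p = 0.193) lay outside. Without knu-2 replicate 3, edgeR called 2 higher, cox1 (1.16, adjusted p = 0.002) and ATMG00030 (0.61, adjusted p = 0.0409), and 4 lower, among them ATMG00670 (-1.68, adjusted p = 0.026), ATMG00660 (-1.16, adjusted p = 0.0372) and ATMG01330 (-3.90, adjusted p = 0.027).

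**Figure D4:**
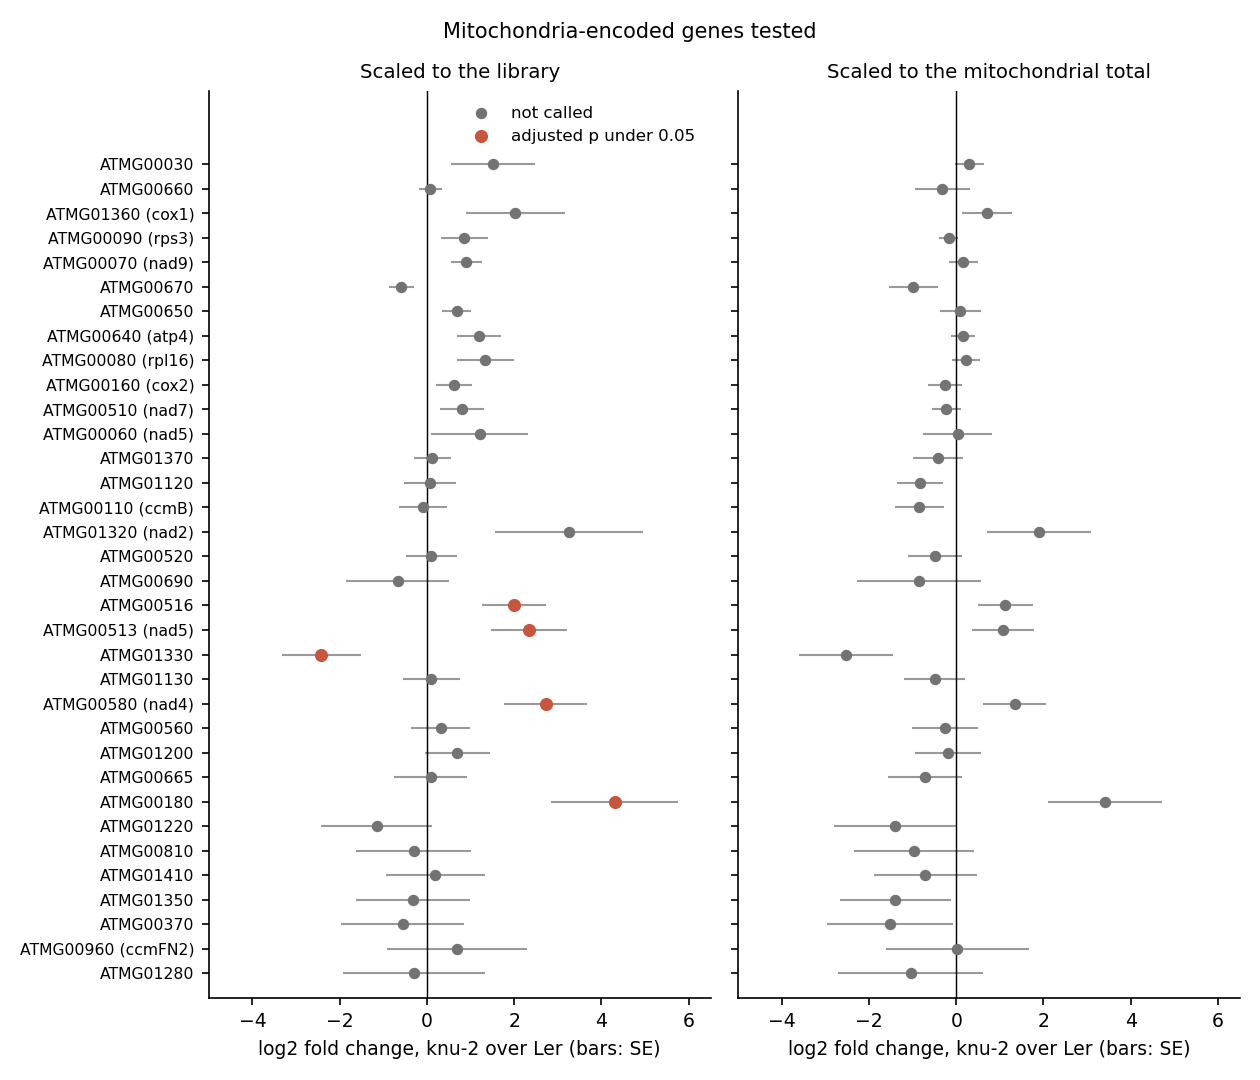
log2 fold changes (knu-2 over Ler, bars: SE) of the 34 mitochondria-encoded genes tested, ordered by counts from the top, scaled to the library (left) and to the mitochondrial total (right), with genes past the threshold in red. On the left 25 of 34 are positive and 5 pass, on the right 13 are positive and none passes.

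Part of the mitochondrial genome is also present in the nucleus, and this bears on which rows could hold counts. Chromosome 2 of Arabidopsis carries a large insertion of mitochondrial DNA, and all 55 nuclear genes whose notes name a mitochondrial gene lie on chromosome 2. Those with identifiers that start with AT2G07 lie between positions 3239693 and 3503476 (TAIR10.1), and AT2G18323 lies apart from them, from position 7960352. Of the 33 protein genes of the reference's mitochondrial genome, 22 had all their coding bases copied on chromosome 2 at 99% identity or more, and 8 had under 50% copied. Among the 122 genes, 53 are named by these nuclear genes: 24 of them were at 0 and 8 were tested, and together they held 4.02% of the mitochondrial counts. Of the other 69, 25 were at 0 and 26 were tested.

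The 19 genes matched by length could be placed by sequence. Every stretch of 100 bases in their coding sequence was looked up in the rest of the reference, nucleus and organelles. For 8 genes under 50% of the stretches recurred (0 to 27.2%), none was at 0, and the median level was 13.0 CPM per kb (4.67 to 26.1). For the other 11, 81.1 to 100% recurred, 3 were at 0 (cob, rpl5 and ccmC), and the median was 0.497 CPM per kb (0 to 5.68). The sets overlapped only in that nad7, of the second, lay above ccmB, of the first. Of the 5 genes called on the library scale, nad4 and nad5 parts 1 to 2 belong to the second set, and the other 3 have no length match. Of those, ATMG00180 and ATMG01330 are named by nuclear genes on chromosome 2 (AT2G07815 and AT2G07808), so copies may bear on their counts too. The sources do not say how reads with more than 1 place were counted, so a low count in the second set does not show a low transcript level.

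**Figure D5:**
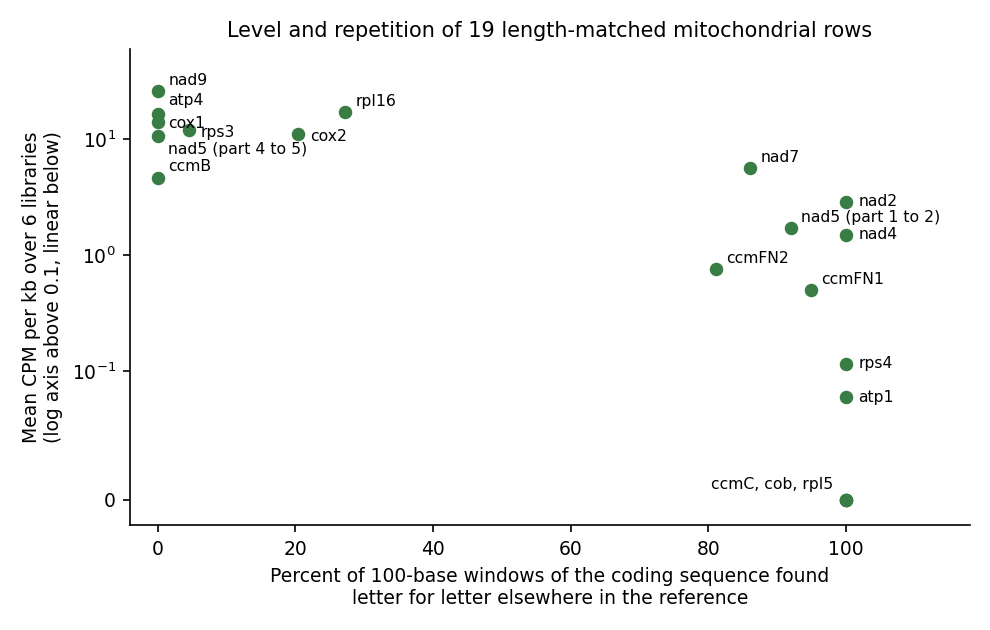
Mean level over 6 libraries (CPM per kb, log axis above 0.1 and linear below) of 19 mitochondrial genes matched by length, against the percent of 100-base windows of the coding sequence that recur elsewhere in the reference. The 8 genes with few repeated windows lie between 4.67 and 26.1 CPM per kb, and the 11 with many lie at or under 5.68, with ccmC, cob and rpl5 at 0.

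The nuclear copies did hold counts. Of 46 nuclear genes in the tables whose notes name a mitochondrial gene, 17 were at 0, and the rest had 5544 counts, of which 82.7% fell on 3 genes. The most abundant, AT2G07715, whose note names ATMG00560, had 669, 867 and 409 counts in Ler and 171, 487 and 864 in knu-2 (log2 fold change -0.38 ± 0.44, edgeR adjusted p = 0.517). For cob the mitochondrial row had no count, while its nuclear counterpart AT2G07727 had 53, 27 and 13 counts in Ler and 81, 147 and 30 in knu-2 (1.54 ± 0.74, adjusted p = 0.108). For subunit 3 of cytochrome c oxidase the nuclear row AT2G07687 had 12, 0 and 7 counts in Ler and 31, 111 and 12 in knu-2 (2.96 ± 1.29, adjusted p = 0.0794), highest in knu-2 replicate 2 as was ATMG00730. Mitochondrial and nuclear origin cannot be told apart in these rows. Adding the 46 rows to the mitochondrial share gave a ratio of knu-2 to Ler of 2.35 in place of 2.58, and adding all rows from AT2G07660 to AT2G07800, which include genes with no such note, gave 1.76 (exact permutation p = 0.2 for both).

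The nuclear genes that serve the mitochondrial genome moved in both directions in the same fit. Of 14 genes for mitochondrial genome expression, mainly RNA processing, splicing and editing, 4 were higher and 5 lower, where 23.6% of all genes tested were higher and 24.4% lower. Their median log2 fold change was -0.52, against 0.10 over all genes tested. The exoribonuclease gene RNR1 fell (-1.47 ± 0.20, adjusted p = 0.000133), as did MTERF15, which acts in the splicing of nad2 (-1.59 ± 0.30, adjusted p = 0.00122), while AT5G46920, the intron maturase gene nMAT2, rose (1.39 ± 0.26, adjusted p = 0.000959). Of 10 genes that maintain the genome, 2 rose and 1 fell, no more than the same 23.6% and 24.4% of all genes. Those that rose were the organellar DNA polymerase gene POLIB (1.08 ± 0.20, adjusted p = 0.00113) and the DNA-binding WHY2 (0.57 ± 0.17, adjusted p = 0.017). The helicase gene TWINKLE fell (-0.57 ± 0.17, adjusted p = 0.0186), and the other 7 did not pass. When any 1 of the Ler libraries or knu-2 replicate 3 was left out, 1 maintenance gene was called higher, and TWINKLE was not called without Ler replicate 1 or without knu-2 replicate 2. Without Ler replicate 3 the expression genes called lower were 3.

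Of 21 nuclear genes of the respiratory chain and ATP synthase, 10 were lower and 5 higher, where 24.4% of all genes tested were lower and 23.6% higher, and the median log2 fold change was -0.30. GAMMA CA1, a carbonic anhydrase-like subunit of complex I, was at 175 to 191 CPM in Ler against 46.4 to 55.0 in knu-2 (-1.84 ± 0.16, edgeR adjusted p = 1.21e-05), and the cytochrome c gene CYTC-2 also fell (-1.72 ± 0.17, adjusted p = 1.86e-05). AT5G13430, an iron-sulfur subunit of complex III, rose (2.17 ± 0.17, adjusted p = 1.1e-05). It has a similar copy, AT5G13440, which rose too (0.80 ± 0.17, adjusted p = 0.0022), so the division of reads between them is uncertain. Of the 7 tested genes of 11 for alternative respiration and mitochondrial stress signalling, 3 fell and 2 rose, where 24.4% of all genes tested fell and 23.6% rose. When any 1 of the Ler libraries, knu-2 replicate 1 or knu-2 replicate 3 was left out, 1 was called higher. Those with the smallest p were AT2G21640, a gene known to respond to oxidative stress (-1.77 ± 0.17, adjusted p = 1.96e-05), AOX1A, an alternative oxidase (-1.06 ± 0.16, adjusted p = 0.000297), and NAC013, a transcription factor that signals from mitochondria to the nucleus (1.5 ± 0.28, adjusted p = 0.00119). In all these lists the meiocyte and tapetum markers given above moved with genotype, and their part was not tested. The nuclear subunits were measured through the tails of mature mRNA and the mitochondrial ones through the small retained share, so the levels of the partners of 1 complex are not comparable.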

How the data were processed

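Per the labels' protocols, RNA was extracted with TRIzol, captured on poly-T beads, fragmented and primed with random hexamers. The authors deposited whole-number counts per gene, 1 file per library, with each gene's length in bp as another value. The aligner, counter, build and strand setting were not given in the sources used. Members and lists were chosen with earlier results of these data known.

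Genotypes and replicates came from the labels, which do not say whether replicates came from separate plants, so the spread behind each p-value may be technical. Within a genotype no pair of libraries agreed within sampling noise (chi-square per degree of freedom at least 20.4). Counts were fitted in R 4.3.3 with edgeR 4.0.16 (filterByExpr, TMM, robust glmQLFit, glmQLFTest, genotype only, Benjamini-Hochberg over all 18422 genes kept), and again with the offset of mitochondrial rows set to the log of their summed counts. Expression in CPM uses TMM-scaled totals, and a library's floor is 3 counts. For shares, an exact two-sided permutation test was used. DESeq2 1.42.0 served as an alternative, and the fits were tested on simulated data. Copies were found with BLAST 2.17.0. Of 100 list entries, 6 were dropped because the reference does not pair identifier and symbol. Named are the 12 mitochondrial genes with the most counts, every one called, and the 3 with the smallest p in each nuclear list. Others (such as ATMG00110, ATMG01320 and the nuclear copies) were chosen after their values were seen. The reference's mitochondrial genome is not shown to be the build of the tables, so it served for names and repeats only.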

Additional observations from a re-analysis of the deposited data

How the results depend on the processing

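With each library left out in turn, the share ratio of knu-2 to Ler ranged from 1.30 to 3.30 (exact permutation p 0.1 to 0.6) and the chloroplast ratio from 0.979 to 1.64. The number of mitochondria-encoded genes called ranged from 0 to 8 higher and 0 to 2 lower on the library scale, and from 0 to 2 and 0 to 4 on the mitochondrial scale. Nuclear list counts ranged from 3 to 6 lower for genome expression, 1 to 3 higher and 0 to 1 lower for maintenance, and 1 to 2 higher for alternative respiration. Some log2 fold changes of uncalled genes crossed 0 in these sets. On the library scale they were ATMG00660 (-0.24 to 0.26), ATMG00090 (-0.071 to 1.195) and ATMG00510 (-0.10 to 1.12). On the mitochondrial scale they were ATMG00030 (-0.00091 to 0.61), ATMG00660 (-1.16 to 0.12), ATMG00070 (-0.33 to 0.39), ATMG00650 (-0.69 to 0.44), ATMG00160 (-0.57 to 0.10) and ATMG00060 (-0.55 to 0.57). Same-numbered libraries did not deviate together over all genes (correlations of -0.12, 0.10 and 0.05), and whether they share a collection or batch was not tested. With a replicate block 3 were higher and 0 lower on the library scale, and ATMG00180 and ATMG00516 were the 2 of the 5 calls that passed in both fits. ATMG00650 (-0.14) and ATMG00060 (-0.49) changed sign on the mitochondrial scale with that block. Without scaling beyond totals 7 were higher and 0 lower, while the median of all genes moved by 0.32 and 63.7% of all calls were higher, against 49.2%. DESeq2 called 6 higher and 1 lower on the library scale and 1 each on the mitochondrial scale. A mitochondrial total without ATMG00030 gave 1 higher, with ATMG00090 at 0.047, and TMM among mitochondrial rows gave 1 higher, with ATMG00090 at 0.19, ATMG00160 at 0.093 and ATMG00510 at 0.14. The cause of these changes was not tested. DESeq2 size factors and no filter left 4 higher and 1 lower. Depth limits the members with few counts, 10 of which had 1 to 9 counts in all.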
